A study of Arabidopsis thaliana with 24 samples.

Results

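The transcripts described here stood high on average among decapped mRNA in developing flower tissue of Arabidopsis thaliana. They are the 91 genes, of 10607 tested (0.858%), whose log ratio of decapped over total mRNA averaged 1.75 or more over 24 arrays and lay above 0 on every array. The mean condition alone was met by 141 genes (1.33%), the sign condition alone by 767 (7.23%), and both together by 98. Of those 98, 7 were set aside by name or type: the subtilase genes SBT1.3 and SBT3.5, POL, UBP21, APS3, WRKY20 and the pseudogene AT1G62860. The ratios that chose the members are given below as a description, without a test.

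An mRNA carries a cap on its 5′ end that protects it and recruits the translation machinery. Removal of the cap by the decapping complex exposes the 5′ end to exonucleases, and cleavage inside an mRNA, for example by a small RNA, also leaves a 3′ part without a cap. A transcript with a high ratio of decapped over total mRNA was thus more abundant in the uncapped pool than its share of all polyadenylated RNA would give.

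All plants were ap1 cal mutants that carried AP1-GR, the floral regulator AP1 fused to the steroid-binding part of a receptor and driven by the constitutive 35S promoter. In such plants the inflorescence proliferates as meristems until dexamethasone, here at 1 µM, activates the fusion protein and flowers begin to form nearly together. Tissue from the inflorescence surface of about 25 plants was collected per time point, on days 0, 1, 2, 3, 4 and 5 after activation, in 4 biologically independent sets. Day 0 was the only comparison state, and every group carried the same mutations and transgene. Decapped mRNA, selected from polyadenylated RNA through an adaptor joined to uncapped ends, and total polyadenylated mRNA of a sample were hybridised together to 1 array, which gave 4 arrays a day.

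Every value is a log ratio, probably on the log2 scale and of decapped over total mRNA, since the sources used here state neither scale nor direction. The authors' centring is likewise unknown. If the direction were the opposite, every high value below would be low. Medians of the deposited columns over all probes ran from -0.14 to 0.30, and the median gene of the tested 10607 had a mean of -0.16. On every day 2 arrays had decapped mRNA in Cy3 and 2 in Cy5. Of the meristem and flower markers listed for a check of the tissue, UFO (1.01 ± 0.30, SD, n = 24) and CLV3 (-0.31 ± 0.51) were found by symbol among the tested genes, and of the leaf, root and vascular markers 0 were. A ratio of 2 pools gives no level, so the tissue label could not be checked further. Of the 24 arrays, 22 correlated best over all genes with the other arrays of their own set. The exceptions were both of day 0: set 1 (mean r = -0.07 with its own set and 0.15 with set 2) and set 3 (0.08 with its own set and 0.21 with set 1). By this measure both went against their set labels. Whether those set numbers are right was not tested. Set means, values by set and fits with set as a block use the numbers as labelled, and the tests over sets and days are also given without these arrays.

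The members' means ran from 1.75 to 5.54 with a median of 1.92, which would be 3.79-fold if the scale is log2. In all, 37 had a mean of at least 2 and 6 of at least 2.5. A gene symbol in RefSeq beyond the locus was found for 1261 of the 10607 tested genes. Among the members 14 had one and 77 had none. For these loci the tables used here give no product, so no role is stated for them. Of the 91, 90 rested on 1 probe, and a value then belongs to that probe. The median SD of a member over the 24 arrays was 0.64, against 0.69 for all tested genes.

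**Figure D1:**
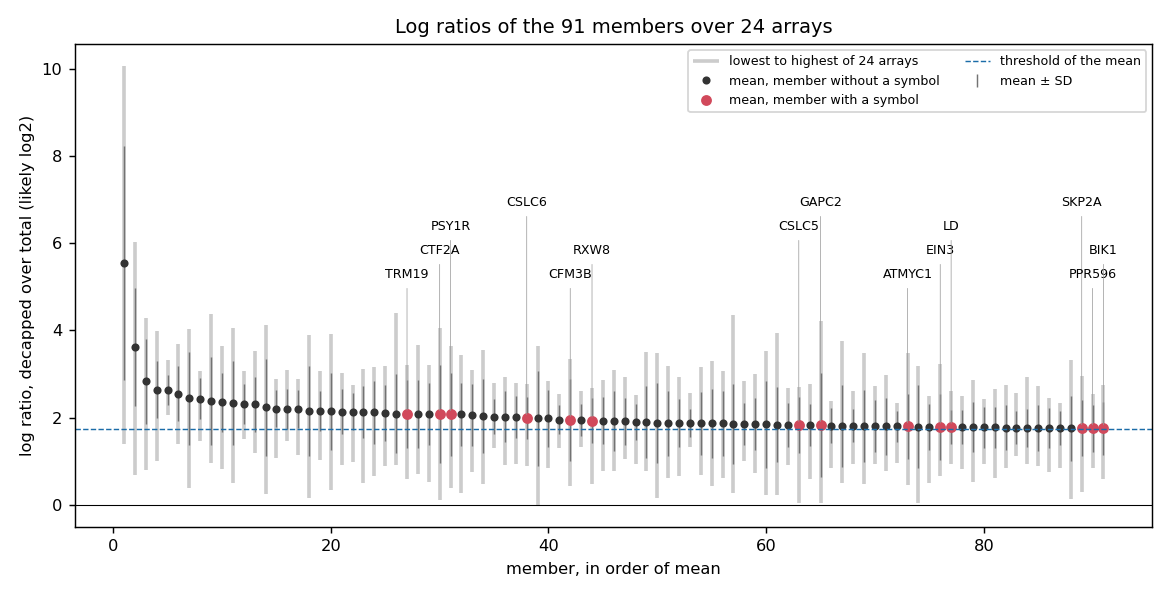
Mean log ratio of each of the 91 members in order of rank, with its SD (thin bar) and its lowest and highest of 24 arrays (grey bar). Most means lie close above the dashed threshold of 1.75, while the rRNA gene AT2G01020 reaches 5.54. The 14 members with a symbol (red) lie between 1.75 and 2.09.

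The 3 members just inside the threshold were SKP2A (1.76), PPR596 (1.76) and BIK1 (1.75). Just below it, among genes above 0 on all arrays, were AT3G13600 (1.745), AT3G07540 (1.745) and AT1G80910 (1.742). A further 42 genes reached the mean but not the sign on every array. The highest of these was IAA34, a gene of the family of auxin-response repressors, with a mean of 3.17 ± 2.81 (SD, n = 24), from -0.67 to 8.69 and above 0 on 20 arrays. Next came AT5G59050 (3.11 ± 1.73, 22 arrays), AT5G38070 (2.65 ± 1.29, 22 arrays), AT3G28925 (2.38 ± 1.62, 22 arrays) and AT3G04450 (2.26 ± 1.13, 23 arrays).

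The highest member was AT2G01020, the only tested gene that RefSeq types as rRNA. The sense given above to a high ratio is for an mRNA and need not hold for AT2G01020. Its ratio ranged from 1.40 to 10.07 with a mean of 5.54 ± 2.68 (SD, n = 24). The other 90 members are typed as protein coding. AT5G52790 followed with 3.62 ± 1.36, from 0.69 to 6.02, and AT1G07300 with 2.83 ± 0.98, from 0.81 to 4.28. Each of these thus spanned more than 3 log units over the arrays.

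Among the other members of high mean, SDs ran from narrow to wide. AT5G38510 stood at 2.63 ± 0.34, with a lowest array of 2.06 and a highest of 3.32. AT3G17920 stood at 2.44 ± 0.47, from 1.46 to 3.06, and AT1G28260 at 2.55 ± 0.63, from 1.39 to 3.68. AT5G47380 (2.64 ± 0.65), AT2G15880 (2.44 ± 1.08), AT3G24480 (2.39 ± 1.01) and AT3G10760 (2.35 ± 0.68) completed the 10 highest. The smallest SDs of all members belonged to AT2G26920 (1.96 ± 0.32), AT4G17740 (1.87 ± 0.32), AT5G38510, AT2G03270 (1.80 ± 0.36) and AT2G21630 (1.94 ± 0.36). The largest belonged to AT2G01020, AT5G52790, GAPC2, CTF2A and AT1G12775 (2.24 ± 1.11). In 18 members every array lay at or above 1, and in 4 at least 1 array lay under 0.1, the lowest value being 0.00075.

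On single arrays the median of the members ran from 1.34 (day 3, set 1) to 2.43 (day 0, set 2), while the median of all tested genes ran from -0.56 to 0.19. Between 58 and 90 of the 91 members were among the highest 10% of genes of an array. The fewest were on day 3 of set 1, the array with the lowest member median.

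**Figure D2:**
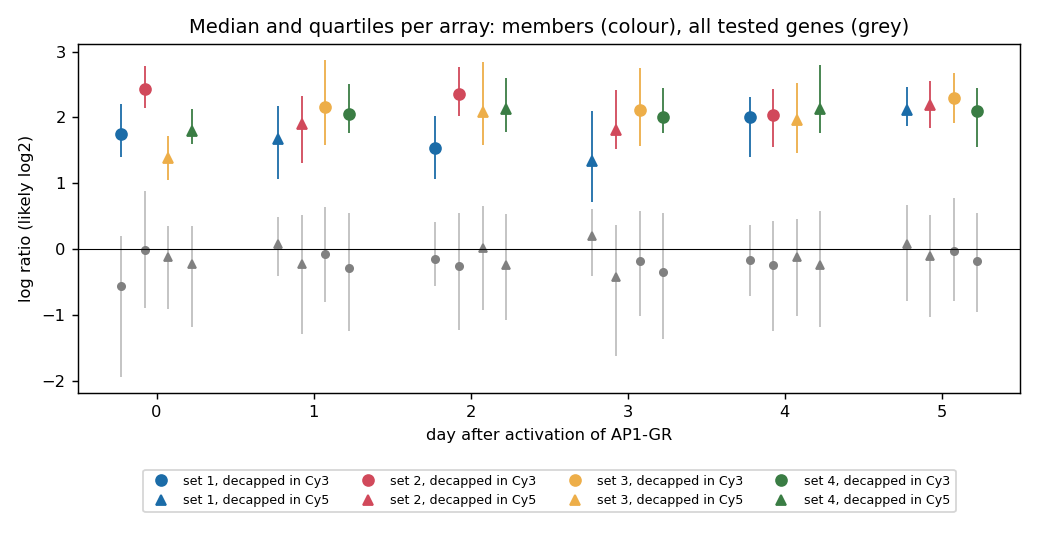
Median (symbol) and quartiles (bar) of the log ratio on each of the 24 arrays by day, for the 91 members in the colour of the set and for all 10607 tested genes in grey; circles have decapped mRNA in Cy3 and triangles in Cy5. The members' medians lie between 1.34 and 2.43 on every array, with no day apart from the others and set 1 lowest on days 1, 2 and 3.

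Since the mean of all arrays chose the members, the rule was also applied to the 18 arrays of 3 sets and the chosen genes read on the 6 arrays of the fourth. Without set 1 the rule gave 150 genes, 81 of them members, whose median on the set 1 arrays was 1.26 (all genes -0.08). Without set 2 it gave 82 genes, 68 of them members, with a median of 1.86 on the arrays left out (all genes -0.23). The values were 98 genes, 75 of them members, and 1.62 for set 3 (all genes -0.07), and 86 genes, 72 of them members, and 1.79 for set 4 (all genes -0.25). The median of genes chosen on 3 sets thus lay far above that of all genes in the fourth, with a smaller margin in set 1. Many chosen genes did not reach the threshold of the mean on the arrays left out. Those that did were 32 of 150, 46 of 82, 44 of 98 and 46 of 86 for sets 1 to 4. Above 0 on all 6 arrays left out were 70.7%, 95.1%, 90.8% and 97.7% of the chosen genes for sets 1 to 4. Of all tested genes it was 12.2%, 19.3%, 17.8% and 22.5%. The members were chosen with earlier results of all these arrays known, so this comparison is not an independent check of the rule.

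Of the members with a symbol, those linked to the cell wall and the cell surface are given first, a grouping that was not tested. CSLC6 and CSLC5 belong to the cellulose synthase-like C group, Golgi glucan synthases of which members make the backbone of xyloglucan, a hemicellulose. CSLC6 had 1.89, 2.64, 2.01 and 2.13 in sets 1 to 4 of day 0, and day 1 gave 2.32, 1.12, 1.64 and 2.64. Day 2 gave 2.03, 1.79, 1.94 and 2.40, day 3 gave 1.63, 1.67, 0.90 and 2.15, day 4 gave 2.60, 1.28, 1.70 and 2.45, and day 5 gave 1.97, 2.02, 2.00 and 2.77. Every day's values overlapped those of every other day, and the mean was 1.99 ± 0.48 (SD, n = 24). CSLC5 averaged 1.83 ± 0.65, with a lowest array of 0.04 (day 0, set 1), a median of 2.01 and a highest of 2.70. Its low end came from single arrays, as the day 1 array of set 2 also stood at 0.40.

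All 9 genes on the array found by symbol in the cellulose synthase superfamily were measured. Besides the 2 members, 4 of the other 7 were higher and 1 was lower over the mean of all days (limma, adjusted p under the threshold of 0.05; 29.7% of all tested genes were higher and 43.5% lower). The superfamily's median was 0.71 with the 2 members and 0.58 for the other 7, against -0.16 for all tested genes. The other C-type genes stood at 1.17 ± 0.63 for CSLC12, 1.04 ± 0.94 for ATCSLC08 and 0.58 ± 0.57 for CSLC04. The measured C-type genes that are not members thus had positive means as well. CSLA03 stood at 0.71 ± 0.71, CSLA01 at 0.19 ± 0.55, CSLB03 at -0.12 ± 0.63 and CSLD2 at -0.89 ± 1.51.

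PSY1R is a leucine-rich repeat receptor kinase named for the sulfated growth peptide PSY1. It had 1.07, 2.92, 1.01 and 2.18 on day 0 for sets 1 to 4, 0.69, 2.84, 2.67 and 1.46 on day 1, and 0.59, 3.64, 3.19 and 1.89 on day 2. It then had 0.38, 3.15, 3.25 and 1.40 on day 3, 1.27, 2.55, 2.87 and 1.93 on day 4, and 2.67, 2.60, 2.48 and 1.18 on day 5. Set 1 was lowest on days 1 to 4 and highest on day 5, and the days overlapped. EMS1, the only other receptor kinase of that list measured, stood at 0.77 ± 0.76 (n = 24). BIK1, a receptor-like cytoplasmic kinase that relays immune signals from such receptors, averaged 1.75 ± 0.61, from 0.59 through a median of 1.74 to 2.76. RXW8, a membrane protein of the family of osmosensitive calcium channels, averaged 1.93 ± 0.52, from 0.48 to 2.68.

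TRM19 carries the TON1-recruiting motif, by which proteins of this family bring the TON1 complex to microtubules. Its values were 2.83, 3.12, 0.59 and 1.16 on day 0 for sets 1 to 4, 3.22, 1.38, 0.94 and 2.93 on day 1, and 2.49, 2.39, 1.34 and 3.04 on day 2. Day 3 gave 2.61, 1.78, 1.00 and 2.64, followed by 2.29, 1.75, 1.86 and 2.79 on day 4, and 1.33, 2.50, 1.57 and 2.60 on day 5. Day means ran only from 1.92 ± 1.24 (SD, n = 4) to 2.31 ± 0.71, and set 3 was lowest on days 0 to 3. Of 13 measured genes of the family, 7 of the 12 others were higher and 4 lower. The family's median was 0.74, and 0.73 for the 12 others. TRM34 (1.80 ± 0.89) reached the threshold of the mean but was above 0 on 23 of 24 arrays, and TRM20 stood at 1.41 ± 0.50, above 0 on all 24. At the other end were TRM27 (-2.04 ± 1.73) and TRM25 (-1.53 ± 1.95). The family was thus not uniform, with means on both sides of 0.

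Nuclear regulators among the members were EIN3, the transcription factor of the ethylene response, ATMYC1, a basic helix-loop-helix factor of epidermal cell fate, and LD (luminidependens), a homeodomain protein that promotes flowering. EIN3 averaged 1.79 ± 0.75 (SD, n = 24), from 0.66 through a median of 1.64 to 3.23. ATMYC1 averaged 1.80 ± 0.74, from 0.46 to 3.47, and LD 1.78 ± 0.39, from 0.93 to 2.62. LD had the smallest SD of the 14 members with a symbol. SKP2A, an F-box protein that marks cell cycle regulators for degradation, averaged 1.76 ± 0.64, from 0.29 to 2.95. AT2G31370, which RefSeq lists without a symbol but with the synonym PosF21, averaged 2.08 ± 0.79.

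Proteins of the organelles and of metabolism made up the rest. CFM3B, a splicing factor of plastid introns with the CRM domain, averaged 1.94 ± 0.95, from 0.43 through a median of 1.69 to 3.35. Both other measured genes of that list were higher too, CFM3A with 1.43 ± 0.89 and CAF1 with 0.28 ± 0.46. PPR596, a pentatricopeptide repeat protein, a class that binds organelle RNA, averaged 1.76 ± 0.54, from 0.85 to 2.55. GAPC2, a cytosolic glyceraldehyde-3-phosphate dehydrogenase of glycolysis, averaged 1.83 ± 1.19, from 0.03 through a median of 1.74 to 4.21. CTF2A averaged 2.08 ± 1.12, from 0.12 through a median of 1.87 to 4.05. GAPC2 and CTF2A had the widest SDs of the 14. The other lists examined were also matched by symbol, so members without a symbol could not be counted in them. For kinesins and myosins the 4 measured genes were XIC, XIE, XIJ and VIIIB (median 0.33). Of these, 2 were higher and 0 lower. For auxin and cytokinin transport and response the 5 measured were RR18, RR19, RR21, RR22 and ARR15 (median -0.04). Here 2 were higher and 1 was lower. Among these measured genes 0 were members. Whether members without a symbol belong to these classes was not tested.

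**Figure D3:**
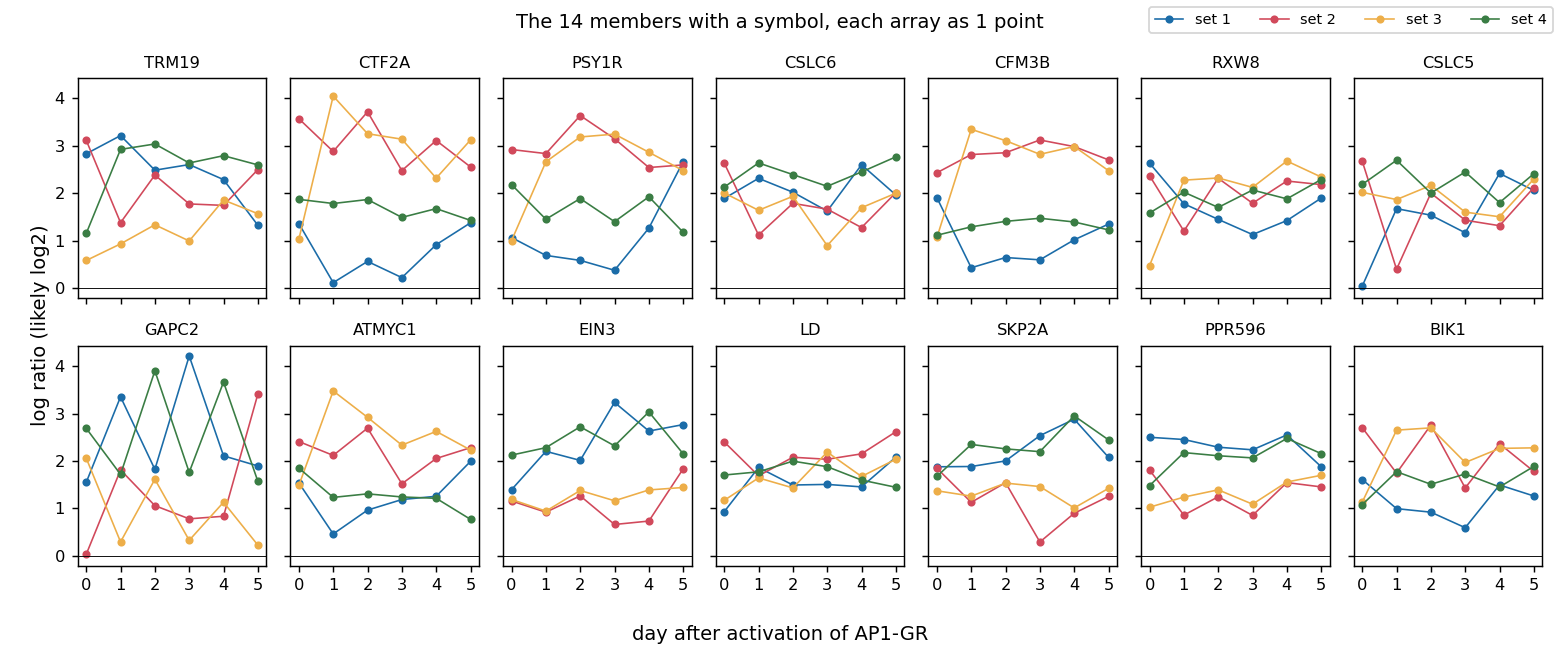
Log ratio of the 14 members with a symbol on each array, by day after activation of AP1-GR, with the arrays of a set joined by a line. The lines of the sets mostly keep their order from day 1 to day 5 in CTF2A, CFM3B, EIN3 and PPR596, and GAPC2 has the widest swings, from 0.03 to 4.21.

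The next comparison asked whether the ratios of the members moved as flowers formed. Ratios were fitted per gene with limma, by day means and a dye term, and p-values were adjusted over all 10607 genes (Benjamini-Hochberg). No member passed the F test over days, and 0 of all genes did (0.0%), while at an unadjusted p under 0.05 it was 1 member and 142 genes (1.34%). For the 5 differences from day 0 and the slope per day, 0 members and 0 genes passed as well (0.0% each). Unadjusted, 1, 1, 2, 1 and 2 members were under 0.05 on days 1 to 5 (backgrounds 1.86%, 1.97%, 4.78%, 1.81% and 3.11% of genes) and 2 for the slope (2.48%). The median 95% interval of a member's difference from day 0 was ±1.01 before any adjustment over genes. Larger differences did not pass either: AT1G04780 differed by 1.06 on day 3 (adjusted p = 0.975, limma). AT5G53637 differed by -1.53 on day 1 (adjusted p = 0.99993, limma), but its values rest on 2 probes on day 1 and on 1 on day 0, as given below. With set as a block, which pairs the days within a set, 0 members passed the F test, the slope and each difference, while 4 genes passed on day 3 (0.0377%) and 1 on day 5 (0.00943%). Leaving out set 1 or set 3 of day 0, the arrays that stood apart, also gave 0 members in each of these tests, as did leaving out both, with and without the block.

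Every member had a mean of at least 1 on each day, the lowest being 1.08, and 38 had at least 1.75 on each. The member medians, averaged over the 4 arrays of a day, were 1.84 ± 0.44 (SD, n = 4), 1.95 ± 0.21, 2.03 ± 0.34, 1.81 ± 0.34, 2.03 ± 0.07 and 2.17 ± 0.09 on days 0 to 5. Day 5 minus day 0 had a median of 0.26 over the members and 0.24 over all tested genes, and 76 of 91 members (83.5%) lay above 0 against 73.8% of all genes. The members' shift was thus close to that of the whole array.

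After AT5G53637, the smallest unadjusted F test p-values belonged to AT4G11800, AT1G70100, AT1G04780 and AT1G75200. AT1G04780 had 0.13, 1.81, 0.81 and 1.56 on day 0 for sets 1 to 4, 1.58, 1.07, 0.95 and 2.11 on day 1, and 1.65, 2.09, 0.91 and 3.32 on day 2. It had 2.17, 1.62, 2.17 and 2.59 on day 3, 2.05, 1.42, 1.07 and 3.03 on day 4, and 2.89, 1.78, 1.52 and 1.83 on day 5. Day 0 and day 5 overlapped, and the difference of 0.92 ± 0.51 (SE) had an adjusted p of 0.999 by limma.

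AT1G70100 had 1.39, 2.33, 1.08 and 0.77 on day 0 and 2.19, 1.99, 2.09 and 2.75 on day 5, which also overlapped. In between it had 1.83, 1.64, 1.67 and 2.41 on day 1, 2.44, 2.15, 1.27 and 2.32 on day 2, 1.96, 1.56, 1.62 and 2.33 on day 3, and 2.59, 1.55, 1.48 and 2.86 on day 4. Its slope was 0.14 ± 0.06 (SE) per day, adjusted p = 0.9997. The day means of AT4G11800 were lowest on day 4 (1.93 ± 0.13, SD, n = 4) and highest on day 5 (2.65 ± 0.48). Its 4 arrays of day 0 had 2.01, 2.76, 1.53 and 1.77, and those of day 5 had 1.98, 2.69, 2.86 and 3.09, which overlapped.

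AT5G53637 was the member that stood out by day, and its values show how averaging of probes bears on it. Its 4 arrays had 3.44, 2.97, 2.25 and 2.66 on day 0 and 2.91, 2.13, 2.76 and 3.51 on day 5. Between these days it had 1.79, 0.77, 0.94 and 1.73 on day 1, 1.65, 1.27, 1.06 and 1.92 on day 2, 1.79, 0.83, 0.94 and 1.89 on day 3, and 1.75, 0.93, 1.32 and 2.34 on day 4. Days 0 and 5 lay above days 1, 2 and 3 with no overlap. It is the only member with 2 probes. The first probe averaged 2.75 ± 0.72 over 24 arrays. The second averaged 0.15 ± 0.22 over the 16 arrays of days 1 to 4 and held only the shared value read as no measurement on days 0 and 5. In 4 cases, counted by probe and day, this gene also held 4 values shared with another probe that were not the most common set. Such values were kept, and whether they were measurements was not tested. With the first probe alone the mean was 2.75 over all arrays, against 1.90 for the average of both, and the F test over days by limma had an unadjusted p of 0.972, against 0.000625 with both probes. The adjusted p with both probes was 0.99998, and 0.0801 with set as a block.

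The dye orientation is a technical contrast that the balanced mean did not use. By limma, 74 genes differed between arrays with decapped mRNA in Cy5 and in Cy3 (0.698%), and 1 member did, with 6 members and 7.12% of genes at an unadjusted p under 0.05. This was AT2G01020, with a mean of 7.64 on the 12 Cy5 arrays and 3.45 on the 12 Cy3 arrays, a difference of 4.19 ± 0.70 (SE, adjusted p = 0.00178). Its values for sets 1 to 4 were 3.66, 3.96, 6.93 and 8.70 on day 0, 8.10, 4.05, 2.52 and 6.30 on day 1, and 3.63, 3.26, 7.02 and 9.56 on day 2. Day 3 gave 10.07, 5.30, 1.40 and 4.87, followed by 4.59, 1.62, 5.88 and 9.72 on day 4, and 8.09, 8.23, 2.29 and 3.28 on day 5. Both Cy5 arrays lay above both Cy3 arrays on days 0, 2, 3, 4 and 5, and on day 1 the groups overlapped. The call was lost without set 1 (adjusted p = 0.0725, limma) and without set 3 (0.0580).

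GAPC2 also differed by dye once set was a block. Its values were 1.55, 0.03, 2.06 and 2.69 on day 0, 3.35, 1.81, 0.29 and 1.72 on day 1, and 1.82, 1.06, 1.61 and 3.90 on day 2 for sets 1 to 4. Day 3 gave 4.21, 0.78, 0.33 and 1.76, followed by 2.11, 0.83, 1.13 and 3.66 on day 4, and 1.89, 3.41, 0.23 and 1.57 on day 5. The Cy5 mean was 2.54 and the Cy3 mean 1.11, a difference of 1.43 ± 0.41 (SE) whose adjusted p by limma was 0.211, and 0.0153 with set as a block, where 2 members and 101 genes (0.952%) passed. The next smallest dye p-values belonged to AT4G11800, AT1G75200 and AT2G28620, with Cy5 minus Cy3 differences that did not pass, of -0.47 ± 0.17 (SE), -0.48 ± 0.18 and -0.57 ± 0.22 (adjusted p from 0.471 to 0.491, limma). Over all members the dye difference had a median of -0.18, and 24 of 91 lay above 0 against 50.3% of all genes. The members' medians averaged 2.07 ± 0.25 (SD, n = 12) on Cy3 arrays and 1.88 ± 0.29 on Cy5 arrays. Which part dye had in these ratios was not tested beyond this term.

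Much of the members' spread lay between the 4 sets. This was tested after the pattern had been seen, with an F test over sets in a fit with day and dye. By limma, 44 of 91 members passed, against 1634 of all tested genes (15.4%). The rule used the mean and the sign of these same arrays, though not the order of the sets. A value above 0 on every array limits the spread of a gene, so the test is not independent of the rule. How far this bears on the share of members that passed was not tested. The share rested on single arrays and sets. It was 55 members and 3584 genes without set 1 of day 0, and 48 and 1846 without set 3 of day 0, the arrays that stood apart. Without both it was 56 members (61.5%) and 3735 genes (35.2%). Without set 1 of days 1, 2 or 3 it was 29, 33 or 30 members and 925, 1081 or 980 genes. Other arrays bore on it as well. Without set 3 of day 1 it was 31 members and 1092 genes, and without set 1 of day 5 it was 55 members and 1938 genes. Over all single arrays left out in turn it ran from 29 to 55 members and from 925 to 3584 genes. Without whole sets 1 to 4 it was 30, 23, 20 and 9 members and 1296, 971, 724 and 283 genes.

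The order of the sets fell into 2 opposite patterns. In 46 members (50.5%, against 23.8% of all tested genes) the means of sets 2 and 3 both lay above those of sets 1 and 4, and in 30 (33.0%, against 24.1%) the means of sets 1 and 4 both lay above those of sets 2 and 3. The other 15 members had other orders. In the first group the median set means were 1.30, 2.46, 2.47 and 1.74 for sets 1 to 4, and in the second 2.32, 1.67, 1.43 and 2.42. Without day 0 the counts were 45 and 30. Sets 1 and 2 had the same dye orientation on each day, and sets 3 and 4 the other. The SD over all genes ran from 0.96 to 1.80 in the arrays of set 1 (mean 1.19), with the highest of all arrays on day 0, while the means of sets 2 to 4 were 1.45, 1.29 and 1.39. With arrays centred and scaled to 1 spread, 47 members passed the test over sets, and the patterns held 36 and 39 members.

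CTF2A led the symbols of the first pattern, with set means of 0.76, 3.05, 2.82 and 1.69 (adjusted p = 0.00297 for the F test over sets, limma). It had 1.36, 3.57, 1.04 and 1.87 on day 0 for sets 1 to 4, 0.12, 2.88, 4.05 and 1.79 on day 1, and 0.57, 3.72, 3.26 and 1.87 on day 2. It had 0.23, 2.48, 3.14 and 1.49 on day 3, 0.92, 3.11, 2.32 and 1.68 on day 4, and 1.38, 2.56, 3.13 and 1.43 on day 5. Sets 2 and 3 lay above sets 1 and 4 on each of days 1 to 5, and on day 0 set 3 was lowest. CFM3B had set means of 0.99, 2.82, 2.64 and 1.32 (adjusted p = 0.00358, limma) with the same order on days 1 to 5. Its day 0 values were 1.91, 2.43, 1.07 and 1.12, again with set 3 lowest. PSY1R (1.11, 2.95, 2.58 and 1.67), ATMYC1 (1.23, 2.18, 2.51 and 1.27) and BIK1 (1.15, 2.13, 2.16 and 1.57) also passed. RXW8 had the order of this pattern but did not pass (adjusted p = 0.824, limma).

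EIN3 showed the opposite pattern on all 6 days. It had 1.39, 1.16, 1.19 and 2.12 on day 0 for sets 1 to 4, 2.20, 0.92, 0.94 and 2.28 on day 1, and 2.01, 1.26, 1.38 and 2.72 on day 2. It had 3.23, 0.66, 1.16 and 2.32 on day 3, 2.63, 0.73, 1.39 and 3.03 on day 4, and 2.77, 1.83, 1.44 and 2.15 on day 5. Its means were 2.37 in set 1, 2.44 in set 4 and 1.25 in set 3, with set 2 lower still (adjusted p = 0.00358, limma). SKP2A (2.21, 1.16, 1.34 and 2.31), PPR596 (2.32, 1.29, 1.33 and 2.08) and GAPC2 (2.49, 1.32, 0.94 and 2.55) passed too. TRM19 and CSLC6 had this order without passing (adjusted p = 0.0637 and 0.135, limma).

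Of the 14 members with a symbol 9 passed the test over sets, against 44 of all 91 members and 15.4% of all tested genes. CTF2A, CFM3B and PPR596 passed it under each of the 35 alternatives run. The highest adjusted p among alternatives was 0.0986 for PSY1R, 0.144 for GAPC2, 0.0958 for ATMYC1, 0.0506 for EIN3, 0.0965 for SKP2A and 0.115 for BIK1 (limma).

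**Figure D4:**
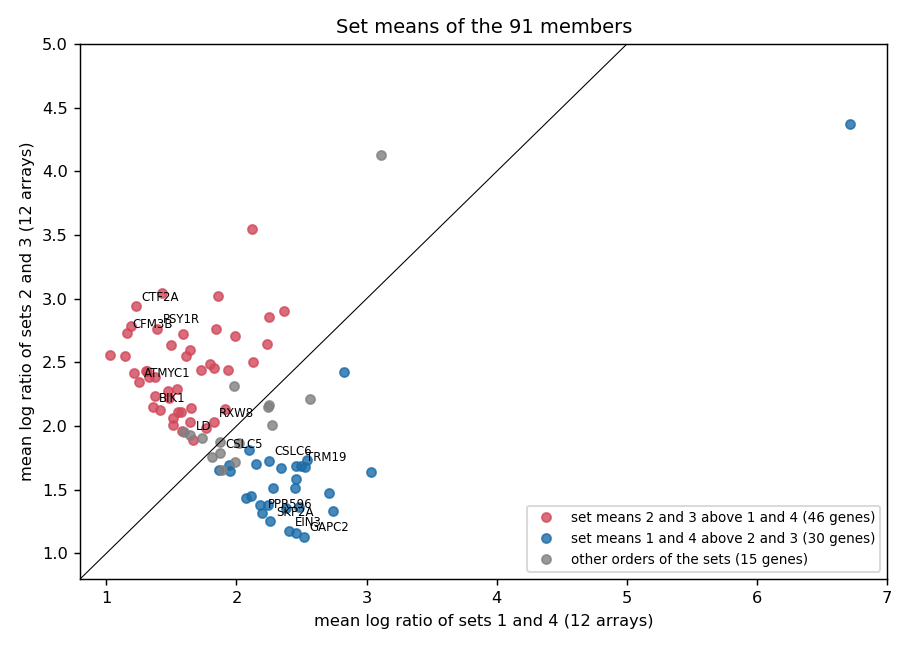
Mean log ratio of each of the 91 members over the 12 arrays of sets 1 and 4 (x axis) and the 12 arrays of sets 2 and 3 (y axis), coloured by the order of the 4 set means; the line marks equality. By the definition of the colours, the 46 members with sets 2 and 3 high lie above the line and the 30 with sets 1 and 4 high below it.

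As a description, deviations from the day means were correlated between members over the 24 arrays, which share sets and dyes. The median r of the 4095 pairs was 0.23, with quartiles of -0.32 and 0.66, against 0.08, -0.16 and 0.32 for pairs of all tested genes. Named pairs among the most extreme were EIN3 with SKP2A (r = 0.95), CFM3B with AT1G69610 (0.96) and CFM3B with AT1G53050 (-0.93). These pairs were picked after their values were seen.

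Members were long genes. Their median span in RefSeq was 3311 bp, from 164 to 8896 bp, against 2180 bp for the tested genes. Of 5 span classes of about equal size, the longest held 45 of the 91 members (2.13% of its genes) and the shortest 2 (0.0941%). The classes between held 3, 11 and 30 members from short to long. At least 3000 bp were spanned by 56 members (61.5%, against 26.5% of tested genes). RXW8 was the longest at 8896 bp. More than 1 annotated transcript was listed for 51 members (56.0%, against 42.7% of all). Span includes introns, and neither transcript length nor probe position along the transcript was analysed here.

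**Figure D5:**
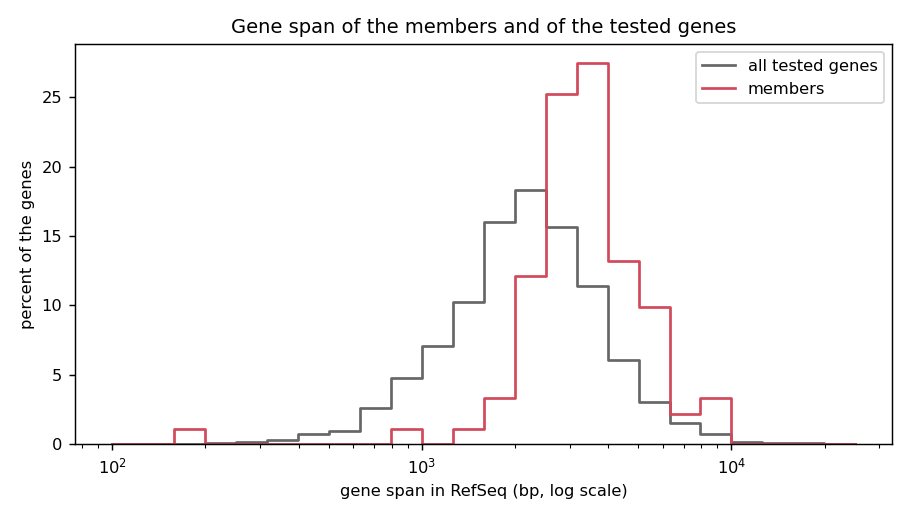
Distribution of the RefSeq gene span (log axis, in bp) as a percent of the 91 members (red) and of the 10603 tested genes with a span (grey). The members' distribution lies to the right, with a median of 3311 bp against 2180 bp, and the member at 164 bp is the rRNA gene AT2G01020.

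Members were spread over the genome, with 26, 16, 21, 15 and 13 on chromosomes 1 to 5. As a share of the tested genes of a chromosome this was 0.949%, 1.02%, 0.923%, 0.964% and 0.528%. No 2 members were neighbours in the RefSeq gene order.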

How the data were processed

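The authors deposited 1 table of 26102 probes on 24 arrays (4 on each of 6 days), read here as log2 ratios from their range and sign. For background correction, normalization, log base and direction, the method is not given in the sources used here. Direction was taken as decapped over total, since channel 1 is decapped mRNA on every sample per the labels. All arrays correlated above 0 whatever the dye. Of the probes, 13960 were paired with 1 gene by the platform annotation, 13912 of these matched RefSeq (TAIR10.1), and 12142 were unnamed. Each day's most common shared set of 4 values (770 to 4424 probes) was read as no measurement and removed. Counting every shared set, 3831 to 5397 probes a day shared their 4 values with another probe. The less common sets were kept, and 537 tested genes (5.06%) had a probe with such values, 1 of them a member. Probes of a gene were averaged, 3138 of 13745 genes were left out for a day without values, and 10607 were tested. The number of arrays limits the precision.

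Fits used limma 3.58.1 (lmFit, eBayes) in R 4.3.3, with day means and a dye term, two-sided tests and Benjamini-Hochberg adjustment at 0.05. The scripts, in Python 3.11.15, were tested on simulated data. The sets are biologically independent tissue collections per the labels. That the same set number pairs arrays of different days was inferred from the numbers in the titles. Arrays of a set correlated in deviations from day means with a median of 0.28 (48 of 60 pairs over 0.1), against -0.09 between sets. Deviations within a day sum to about 0, so a positive value within sets by itself tends to make the value between sets negative. Alternatives were set as a fixed or random block, centring, scaling, other treatment of shared values and probes, array weights, no dye term and leaving out each array or set. The members and lists were chosen with earlier results of these data known. Named were members with a symbol, the 10 of highest mean, the 5 with the smallest p for day and for dye, the 5 with the smallest and largest SD, and genes at the threshold. No sequence is printed, as none was given here.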

Additional observations from a re-analysis of the deposited data

Results flagged for a closer look

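Of 54 groups of 4 arrays of 1 day examined for the members with day values and for the array medians, 2 (3.70%) had 1 array far from the other 3, and chance flags about 1 in 20 groups. PSY1R on day 5 stood at 1.18 in set 4, against 2.67, 2.60 and 2.48 in sets 1 to 3. CSLC6 on day 5 stood at 2.77 in set 4, against 1.97, 2.02 and 2.00. Both arrays are the day 5 array of set 4, which was low for the first gene and high for the second.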

How the results depend on the processing

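Over 81 results and 1958 alternative values, 1885 kept their side of the threshold, and their direction where they had one, or lay near the value reported. Of the values 0 reversed, but most could not. Counts and F tests have no direction, and means of members above 0 on every array stay above 0 when arrays are left out. The number of genes that met the rule was 147 with arrays centred and 175 with arrays centred and scaled (89 of the members each), 188 at a threshold of 1.5 and 37 at 2, so centring moved more genes past a fixed threshold. It was 82 to 150 without 1 set and 85 to 106 without 1 array. Members past a day test numbered 0 under every alternative run. Genes past day 3 minus day 0 numbered 4 with the replicate block, 5 with set as a random block, 1 with arrays centred, 1 when also scaled, 0 to 1 without 1 array and 0 to 111 without 1 set (111 without set 1). Day 5 gave 1 gene with the replicate block, 1 with the random block, 4 with array weights and 0 to 1 without 1 array or set. Day 4 gave 1 with array weights, the slope 1 with arrays scaled, and the F test over days 0 to 1 without 1 set (1 without set 2). Genes with a dye effect numbered 45 with arrays scaled, 61 to 83 without 1 array and 26 to 99 without 1 set (38 without set 2, 26 without set 4), and members 2 with either block and 0 to 1 without 1 set. The test over sets gave 925 to 3584 genes and 29 to 55 members without 1 array, and 283 to 1296 genes and 9 to 30 members without 1 set. Without both day 0 arrays of sets 1 and 3, chosen after seeing the data, it gave 3735 genes and 56 members, and with the replicate block as well day 3 gave 15 genes and the dye 116 genes and 2 members. The replicate block changed no other member's call. The cause of these shifts was not tested. Signal over background is unknown here, 90 of 91 members rest on 1 probe, and the tests between days did not call differences of more than 1 log unit in members.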

Other observations

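Probes without a gene name could not enter the analysis of genes. Of 9473 such probes with values on all 24 arrays, 125 (1.32%) had a mean of at least 1.75 and lay above 0 on all arrays, with means up to 4.26. Among 10758 named probes it was 108 (1.00%). The 125 are not members, and which transcripts they measure was not analysed here.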
